A study of Mus musculus with 27 samples.

Results

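The 53 mouse genes described here encode the ephrins, the Eph receptors, the semaphorins, the plexins and the neuropilins. They were taken from the deposited expression tables by symbol alone, as every gene named as an ephrin-A or -B, an EphA or EphB receptor, a semaphorin of classes 3 to 7, a plexin A to D or a neuropilin, and they make up 53 of the 24892 symbols in the tables. The cells were NMuMG, an established line of normal mouse mammary epithelial cells that undergoes the epithelial-to-mesenchymal transition (EMT) when given TGF-β, here 1 to 5 ng/ml for 8 or 24 h or none. Parental cells gave 6 RNA-seq libraries, 2 at each time, and cells infected with an irrelevant (control) shRNA or with an shRNA against lamin B1 (KD) gave 12 more, again 2 at each time. The knockdown was partial by design, the study selected infected cells with puromycin in its other assays, and each shRNA group rests on 1 shRNA label, so an effect of lamin B1 and an effect of that shRNA on other genes cannot be told apart. Lamin B1 ChIP-seq, made from a fraction enriched in euchromatin and in which 2 parallel precipitations were mixed into 1 library, and ATAC-seq, which marks accessible chromatin, were each done once per time in parental cells, so their peaks have no replicate.

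Ephrins and Eph receptors signal between touching cells: ephrins-A are anchored to the membrane by a lipid and mainly bind EphA receptors, ephrins-B span the membrane and mainly bind EphB receptors, and both ligand and receptor can signal into the cell that carries them. Semaphorins are secreted (class 3) or membrane-bound guidance cues, plexins are their receptors, and neuropilins are the co-receptors through which most class 3 semaphorins reach A-type plexins. Both systems are known for axon guidance, and in epithelia they bear on cell sorting, adhesion, migration and the branching of the mammary gland.

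RNA was given as FPKM, read fragments scaled to the length of the transcript and the size of the library. Fold changes here are on the log2(FPKM + 1) scale, which understates the change of genes below a few FPKM, and a gene is called when its adjusted p is under 0.05 in limma with Benjamini-Hochberg adjustment over all genes tested. The 2 tables were normalised separately, so levels set side by side across them are not tested against each other. In bulk RNA, fewer cells of a type and less RNA per cell cannot be told apart.

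Lmnb1, the target of the shRNA, read 36.9 and 36.3 FPKM untreated, 34.1 and 34.4 at 8 h and 19.5 and 17.6 at 24 h in parental cells. The control shRNA cells gave 29.2 and 36.5 FPKM untreated, 32.8 and 32.1 at 8 h and 18.4 and 17.9 at 24 h, and the KD cells 9.01 and 9.27 FPKM untreated, 7.79 and 8.14 at 8 h and 4.37 and 7.52 at 24 h. Every KD library lay below every control library of its time, with a difference of -1.73 (SE 0.18, adjusted p = 5.73e-04) untreated, -1.90 (SE 0.18, adjusted p = 1.89e-04) at 8 h and -1.50 (SE 0.18, adjusted p = 9.01e-04) at 24 h. Replicates correlated at 0.983 to 0.994 across genes. The cells carried the keratins of simple epithelium at high level, and Cdh1, the epithelial cadherin, read 113 and 119 FPKM untreated, 86.3 and 92.9 at 8 h and 39.4 and 41.1 at 24 h in parental cells, but the epithelial markers Cldn3 and Cldn7 were at 0 or near it and Epcam did not pass 1.17 FPKM there. The fall of Cdh1 was not shared by the epithelial markers as a set. In parental cells 5 of them were tested, and by 8 h 3 had gone up and 2 down (median change 0.20). After 24 h the calls were split evenly, 2 each way, with 1 uncalled (median 0.07). Among 8 tested mesenchymal and TGF-β response markers, 7 rose at each time, while 1 was uncalled at 8 h and 1 fell at 24 h. Endothelial markers summed to at most 1.66 FPKM and leukocyte markers to at most 1.94 FPKM in any library. The summed level of 4 neuronal markers was higher with TGF-β, from 0.137 to 0.396 FPKM untreated to 2.64 to 2.79 FPKM at 24 h in parental cells, from 0.305 to 0.330 to between 7.46 and 7.97 FPKM in control cells, and to between 14.9 and 16.5 FPKM in KD cells. Nearly all of that sum was Tubb3, a neuronal β-tubulin, while Rbfox3 and Snap25 stayed at or near 0, and any part of it in the results below was not tested.

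In parental cells 36 of the 53 genes reached 1 FPKM in at least 2 libraries and were tested, 10 were low and 7 were silent, meaning that no library reached 0.1 FPKM. The silent genes were Epha3, Epha6, Epha8, Epha10, Plxnc1, Sema3g and Sema5b. Among the shRNA libraries 37 were tested, Sema7a in addition, and 10 were silent. The branches of the families thus differed in how many members were expressed. Of 9 EphA receptors only Epha2, Epha4 and Epha7 were tested, whereas all 5 EphB receptors and all 6 class 4 semaphorins were. Plxnb2, the plexin that binds class 4 semaphorins, was the most abundant member per length of transcript, followed in untreated parental cells by Epha2, Sema3c, Ephb4 and Efna1.

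TGF-β changed most of the tested members. At 8 h in parental cells 31 of 36 (86.1%) were called, beside 54.5% of all tested genes. Of these 15 rose, beside 22.4% of all genes, and 16 fell, beside 32.1%. By 24 h 34 of 36 (94.4%) were called, beside 70.5% of all genes. The 20 that rose stood beside 33.4% of all genes and the 14 that fell beside 37.1%. From 8 to 24 h 22 members (61.1%) changed, beside 51.8% of all genes. Of them 16 rose (27.7% of all genes) and 6 fell (24% of all genes), with 3 at least 2-fold (3.63% of all genes). The median size of change, regardless of direction, was 0.60 for the members at 8 h and 0.82 at 24 h, against 0.18 and 0.29 for all tested genes. Changes of at least 2-fold were called for 5 members at 8 h, against 4.3% of all genes, and for 12 at 24 h, against 11.8%. Efna3, Ephb1, Ephb2 and Sema4f reached 1 FPKM only with TGF-β, so their entry into the test already fixed a rise. Among the other 32 members 11 rose and 16 fell by 8 h, while 16 rose and 14 fell by 24 h. The 2-fold counts also hold genes whose rise was fixed in this way, Sema4f at 8 h and Efna3, Ephb2 and Sema4f at 24 h.

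Control shRNA cells showed 34 of 37 members (91.9%) called at 8 h, beside 64.3% of all genes. Of these 16 rose (19.4% of all genes) and 18 fell (44.9% of all genes). By 24 h 36 (97.3%) were called, beside 70.7% of all genes. Here 19 rose (25.5% of all genes) and 17 fell (45.1% of all genes). There the median of all tested genes itself lay at -0.14 at 8 h and -0.13 at 24 h, and quantile scaling took these shifts to near 0. In these cells 14 members at 8 h changed at least 2-fold, against 8.58% of all genes, and 16 at 24 h, against 14.6%. Efna3, Ephb1, Ephb2, Plxna4, Sema6d and Sema7a reached 1 FPKM only with TGF-β in the shRNA table, and Ephb3, Sema3b and Sema6b only without it. Among the other 28 members 10 rose and 15 fell by 8 h, while 13 rose and 14 fell by 24 h in control cells. The 2-fold counts also hold genes that entered the test on 1 side only. These were Ephb1, Ephb3, Plxna4 and Sema7a at 8 h and Efna3, Ephb2, Plxna4, Sema6b, Sema6d and Sema7a at 24 h.

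**Figure D1:**
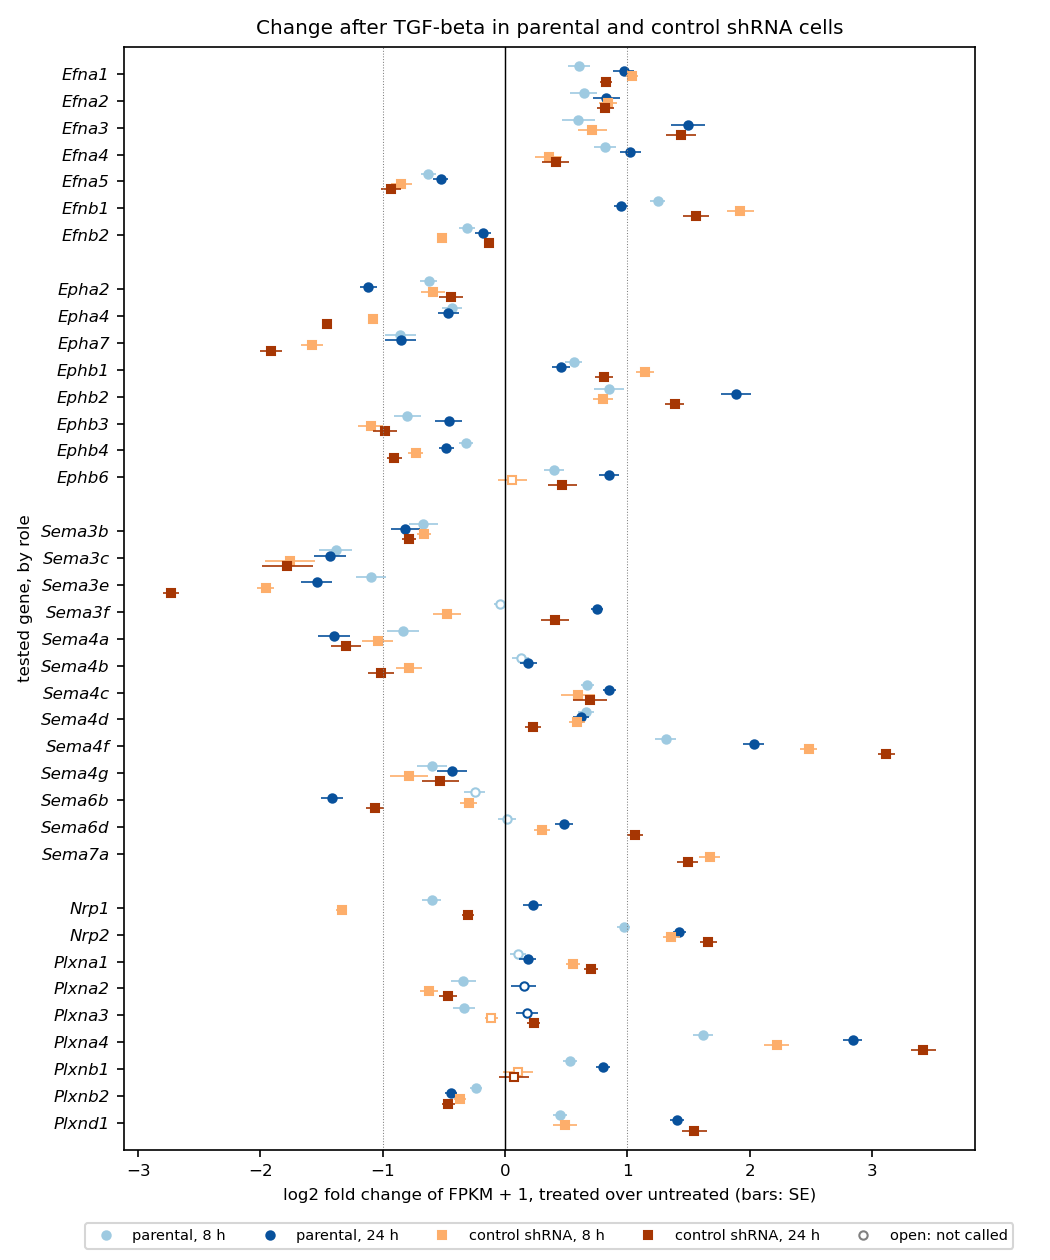
Log2 fold change of FPKM + 1 (x axis) of each tested member (y axis, by role) at 8 and 24 h of TGF-β over untreated cells, in parental (circles) and control shRNA cells (squares). Bars are standard errors from limma with 2 libraries per group, filled symbols are called, and Plxna4 and Sema4f lie farthest right and Sema3e farthest left.

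For the members at least 2-fold changed at 24 h in parental cells, the 250 bases before the transcription start site (TSS) were read from the mm9 genome. They are given for those that held a searched motif. Plxna4, which held none, was added as the member with the largest change on the log2(FPKM + 1) scale. Capitals mark a match to CAGGTG, the E-box read by Snail and Zeb repressors, to TGANTCA, the AP-1 site, or to CATTCC, the TEAD site, on either strand (CACCTG is CAGGTG on the opposite strand). Each runs 5′ to 3′ on the strand of the gene and ends at the base before the TSS.
Epha2 (chr4:140856905-140857154, plus strand): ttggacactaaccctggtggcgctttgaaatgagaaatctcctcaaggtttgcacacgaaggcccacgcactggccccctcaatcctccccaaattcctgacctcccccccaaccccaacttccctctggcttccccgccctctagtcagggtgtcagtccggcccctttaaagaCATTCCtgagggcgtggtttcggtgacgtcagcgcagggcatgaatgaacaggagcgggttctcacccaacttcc
Ephb2 (chr4:136391904-136392153, minus strand): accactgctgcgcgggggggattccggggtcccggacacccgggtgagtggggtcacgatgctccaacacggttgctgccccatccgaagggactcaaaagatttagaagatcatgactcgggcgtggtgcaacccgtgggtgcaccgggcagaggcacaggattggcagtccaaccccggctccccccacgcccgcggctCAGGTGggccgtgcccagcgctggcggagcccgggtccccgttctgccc
Plxna4 (chr6:32538193-32538442, minus strand): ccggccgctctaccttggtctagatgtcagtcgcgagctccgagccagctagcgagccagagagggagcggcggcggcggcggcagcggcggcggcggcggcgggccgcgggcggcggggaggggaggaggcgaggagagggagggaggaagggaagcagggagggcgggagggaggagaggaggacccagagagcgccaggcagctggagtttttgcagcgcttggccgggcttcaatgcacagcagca
Plxnd1 (chr6:115945024-115945273, minus strand): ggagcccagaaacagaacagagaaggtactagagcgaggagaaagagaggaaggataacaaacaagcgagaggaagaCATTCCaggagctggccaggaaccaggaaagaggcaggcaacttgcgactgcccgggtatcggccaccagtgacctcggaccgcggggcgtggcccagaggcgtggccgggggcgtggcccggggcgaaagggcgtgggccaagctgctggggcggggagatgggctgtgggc
Sema3c (chr5:17079849-17080098, plus strand): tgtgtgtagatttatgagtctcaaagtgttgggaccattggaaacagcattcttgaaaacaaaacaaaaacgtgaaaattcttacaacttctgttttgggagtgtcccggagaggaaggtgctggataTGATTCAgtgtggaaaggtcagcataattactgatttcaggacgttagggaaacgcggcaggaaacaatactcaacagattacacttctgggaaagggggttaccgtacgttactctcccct
Sema4f (chr6:82889764-82890013, minus strand): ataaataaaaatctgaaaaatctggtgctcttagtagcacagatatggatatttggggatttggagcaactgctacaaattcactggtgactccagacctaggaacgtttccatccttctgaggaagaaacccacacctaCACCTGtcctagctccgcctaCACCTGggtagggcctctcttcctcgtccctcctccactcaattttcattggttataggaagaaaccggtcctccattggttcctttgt
Sema4f held 2 E-boxes, 110 to 105 and 89 to 84 bases before its start, and Ephb2 held 1, from 49 to 44 bases before it. Both of these genes rose from below 1 FPKM. The window of Sema3c was poor in G and C (42.8%) and that of Plxna4 rich (72.4%), with 7 and 26 CG dinucleotides. Over windows of 300 bases (250 before to 50 after the TSS), CAGGTG stood in 8 of 53 members (15.1%) and in 19.7% of all 21362 promoters, CATTCC in 6 (11.3%, against 13.6%), TGANTCA in 2 (3.77%, against 7.02%) and the palindromic Smad box GTCTAGAC in none (against 0.173%). Median GC content was 64.3% for the members and 55.7% for all promoters. A match is a stretch of letters and no measure of binding.

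Among the ephrins, all 7 tested members were called at both times in both cell types, with 5 higher and 2 lower each time, beside 54.5% and 70.5% of all genes called in parental and 64.3% and 70.7% in control cells. Efna1, Efna2, Efna3, Efna4 and Efnb1 rose, while Efna5 and Efnb2 fell. Efna3 reached 1 FPKM only with TGF-β in parental and in shRNA cells, so entry into the test had already fixed its rise. Of all genes, 22.4% and 33.4% were called higher at 8 and 24 h in parental cells, and 19.4% and 25.5% in control cells. The shares called lower were 32.1% and 37.1% in parental and 44.9% and 45.1% in control cells. Efnb1, a transmembrane ligand of EphB receptors, read 11.1 and 10.9 FPKM untreated, 29.1 and 25.9 at 8 h and 22.4 and 21.9 at 24 h in parental cells. It gave 10.96 and 9.64 FPKM untreated, 42.5 and 41.1 at 8 h and 32.99 and 31.5 at 24 h in control cells. Its change was 1.25 (SE 0.06, adjusted p = 3.17e-05) at 8 h and 0.95 (SE 0.06, adjusted p = 1.06e-05) at 24 h in parental cells, and 1.92 (SE 0.11, adjusted p = 9.55e-07) and 1.56 (SE 0.11, adjusted p = 1.79e-06) in control cells. The peak was thus at 8 h in both cell types, and no treated library came near an untreated one.

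Efna1, the preferred ligand of Epha2 and the most abundant ephrin in untreated parental cells, stood at 32.1 and 29.7 FPKM untreated, 52.5 and 42.9 at 8 h and 61.4 and 61.3 at 24 h. In control cells it read 31.1 and 28.3 FPKM untreated, 62.9 and 60.8 at 8 h and 53.6 and 53.4 at 24 h. It was higher by 0.97 (SE 0.09, adjusted p = 6.73e-05) in parental cells and 0.83 (SE 0.05, adjusted p = 7.83e-07) in control cells at 24 h, and treated and untreated libraries did not overlap. Efna3 started near the floor of detection, at 0.3501 and 0.3199 FPKM untreated, 1.35 and 0.741 at 8 h and 2.598 and 2.95 at 24 h in parental cells. Control cells gave 0.4995 and 0.437 FPKM untreated, 1.27 and 1.56 at 8 h and 2.85 and 3.11 at 24 h. At 24 h its change was 1.50 (SE 0.14, adjusted p = 6.67e-05) and 1.44 (SE 0.12, adjusted p = 7.27e-06). Both 8 h groups lay between the untreated and the 24 h libraries.

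Efna4 read 6.55 and 5.87 FPKM untreated, 12.7 and 10.7 at 8 h and 13.2 and 14.1 at 24 h in parental cells. Control cells gave 8.46 and 6.41 FPKM untreated, 9.67 and 9.75 at 8 h and 10.2 and 10.1 at 24 h. It rose in the former, by 1.02 (SE 0.09, adjusted p = 4.92e-05) at 24 h, and rose less in the latter, by 0.41 (SE 0.11, adjusted p = 0.00941), where the untreated libraries already differed from each other and the call was lost without control replicate 2 of the untreated cells. Efna2, another GPI-anchored ligand, read 1.6 and 1.703 FPKM untreated, 3.68 and 2.66 at 8 h and 3.72 and 3.69 at 24 h in parental cells, with a change of 0.83 (SE 0.11, adjusted p = 4.67e-04) at 24 h. Efna5 went the opposite way, at 2.99 and 3.09 FPKM untreated, 1.64 and 1.59 at 8 h and 1.85 and 1.76 at 24 h in parental and 3.901 and 4.72 FPKM untreated, 1.95 and 1.94 at 8 h and 1.66 and 1.89 at 24 h in control cells, by -0.53 (SE 0.06, adjusted p = 2.43e-04) and -0.93 (SE 0.08, adjusted p = 1.06e-05) at 24 h. Efnb2, the ligand of Ephb4 and the second ephrin by level, read 22.5 and 22.8 FPKM untreated, 16.8 and 19.3 at 8 h and 19.8 and 19.9 at 24 h in parental cells. Control cells gave 32.6 and 34.9 FPKM untreated, 23.2 and 23.4 at 8 h and 30.7 and 30.8 at 24 h. It dipped at 8 h, by -0.31 (SE 0.06, adjusted p = 0.00612) and -0.52 (SE 0.04, adjusted p = 7.67e-06), and lay close to its starting level at 24 h, by -0.18 (SE 0.06, adjusted p = 0.0409) in parental and -0.13 (SE 0.04, adjusted p = 0.0182) in control cells, where quantile scaling turned the value to 0.0026 (adjusted p = 0.959) and, in parental cells, ended the call (adjusted p = 0.0620). The parental 24 h call was also lost without any 1 of the untreated or 24 h libraries.

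The tested EphA receptors fell, and the EphB receptors went both ways. All 3 tested EphA receptors, of 9 in the family, were called lower at both times in both cell types. Of all genes, 32.1% and 37.1% were called lower at 8 and 24 h in parental cells, and 44.9% and 45.1% in control cells. Of the EphB receptors, Ephb1 and Ephb2 were higher and Ephb3 and Ephb4 lower each time. Ephb1 and Ephb2 reached 1 FPKM only with TGF-β, and Ephb3 in the shRNA libraries only without it. For these genes, entry into the test had thus already fixed the direction. Epha2, the most abundant Eph receptor and the main receptor of Efna1, read 70.3 and 70.3 FPKM untreated, 41.8 and 48.96 at 8 h and 31.9 and 31.7 at 24 h in parental cells. Control cells gave 80.03 and 98.4 FPKM untreated, 58.8 and 58.4 at 8 h and 65.9 and 64.05 at 24 h. It fell by 1.12 (SE 0.07, adjusted p = 9.92e-06) in parental cells at 24 h and by 0.44 (SE 0.10, adjusted p = 0.00312) in control cells. Parental libraries separated into 3 steps by time, while the 24 h control libraries lay above those of 8 h and below the untreated ones.

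Epha4, a receptor that also takes ephrins-B, read 11.2 and 11.4 FPKM untreated, 7.46 and 8.81 at 8 h and 7.48 and 8.395 at 24 h in parental cells. Control cells gave 26.8 and 26.5 FPKM untreated, 12.2 and 12.1 at 8 h and 8.91 and 9.21 at 24 h. The change at 24 h was -0.46 (SE 0.08, adjusted p = 0.00206) and -1.46 (SE 0.04, adjusted p = 1.14e-08). In the parental cells it was at its 24 h level by 8 h, while control cells fell on. Epha7 gave 4.66 and 5.02 FPKM untreated, 1.82 and 2.68 at 8 h and 2.08 and 2.403 at 24 h in parental cells. Control cells gave 5.45 and 4.701 FPKM untreated, 1.07 and 0.986 at 8 h and 0.629 and 0.591 at 24 h. Its change at 24 h was -0.85 (SE 0.13, adjusted p = 7.64e-04) and -1.91 (SE 0.09, adjusted p = 1.85e-07), and no treated library overlapped an untreated one.

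Ephb4, the receptor of Efnb2, was the most abundant EphB receptor, at 42.98 and 42.3 FPKM untreated, 32.2 and 35.97 at 8 h and 29.5 and 31.2 at 24 h in parental cells. Control cells gave 35.9 and 33.03 FPKM untreated, 20.6 and 20.1 at 8 h and 17.8 and 18.1 at 24 h. Its change at 24 h was -0.48 (SE 0.06, adjusted p = 2.94e-04) and -0.90 (SE 0.06, adjusted p = 1.64e-06). Ephb3 read 3.81 and 3.68 FPKM untreated, 1.41 and 2.08 at 8 h and 2.43 and 2.46 at 24 h in parental cells. Control cells gave 3.33 and 2.396 FPKM untreated, 0.796 and 0.783 at 8 h and 0.915 and 0.972 at 24 h. It was lowest at 8 h in the parental cells, by -0.80 (SE 0.11, adjusted p = 0.00107), with a partial return by 24 h, -0.46 (SE 0.11, adjusted p = 0.00785).

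Ephb2 was nearly absent untreated and read 0.0775 and 0.122 FPKM untreated, 1.24 and 0.746 at 8 h and 3.23 and 2.91 at 24 h in parental cells. Control cells gave 0.0315 and 0.0337 FPKM untreated, 0.856 and 0.741 at 8 h and 1.69 and 1.71 at 24 h. With all untreated libraries at or below 0.122 FPKM and all 24 h libraries of both cell types at or above 1.69 FPKM, the groups were far apart, and the change at 24 h was 1.89 (SE 0.12, adjusted p = 1.24e-05) and 1.39 (SE 0.08, adjusted p = 5.70e-07). Ephb1 gave 0.729 and 0.698 FPKM untreated, 1.61 and 1.45 at 8 h and 1.37 and 1.33 at 24 h in parental cells and 0.3498 and 0.306 FPKM untreated, 2.09 and 1.78 at 8 h and 1.26 and 1.395 at 24 h in control cells, highest at 8 h in both. Its 8 h change was 0.56 (SE 0.07, adjusted p = 6.68e-04) and 1.14 (SE 0.08, adjusted p = 2.91e-06). Ephb6, an EphB receptor without kinase activity, read 3.64 and 3.35 FPKM untreated, 4.54 and 5.36 at 8 h and 6.904 and 7.27 at 24 h in parental cells and was higher at 24 h by 0.85 (SE 0.08, adjusted p = 7.67e-05), and by 0.47 (SE 0.12, adjusted p = 0.00695) in control cells. It reached 2-fold in KD cells, at 1.53 and 1.78 FPKM untreated, 2.32 and 2.47 at 8 h and 4.25 and 5.58 at 24 h, against 2.15 and 1.6 FPKM untreated, 1.92 and 2.05 at 8 h and 3.04 and 2.87 at 24 h in control cells.

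**Figure D2:**
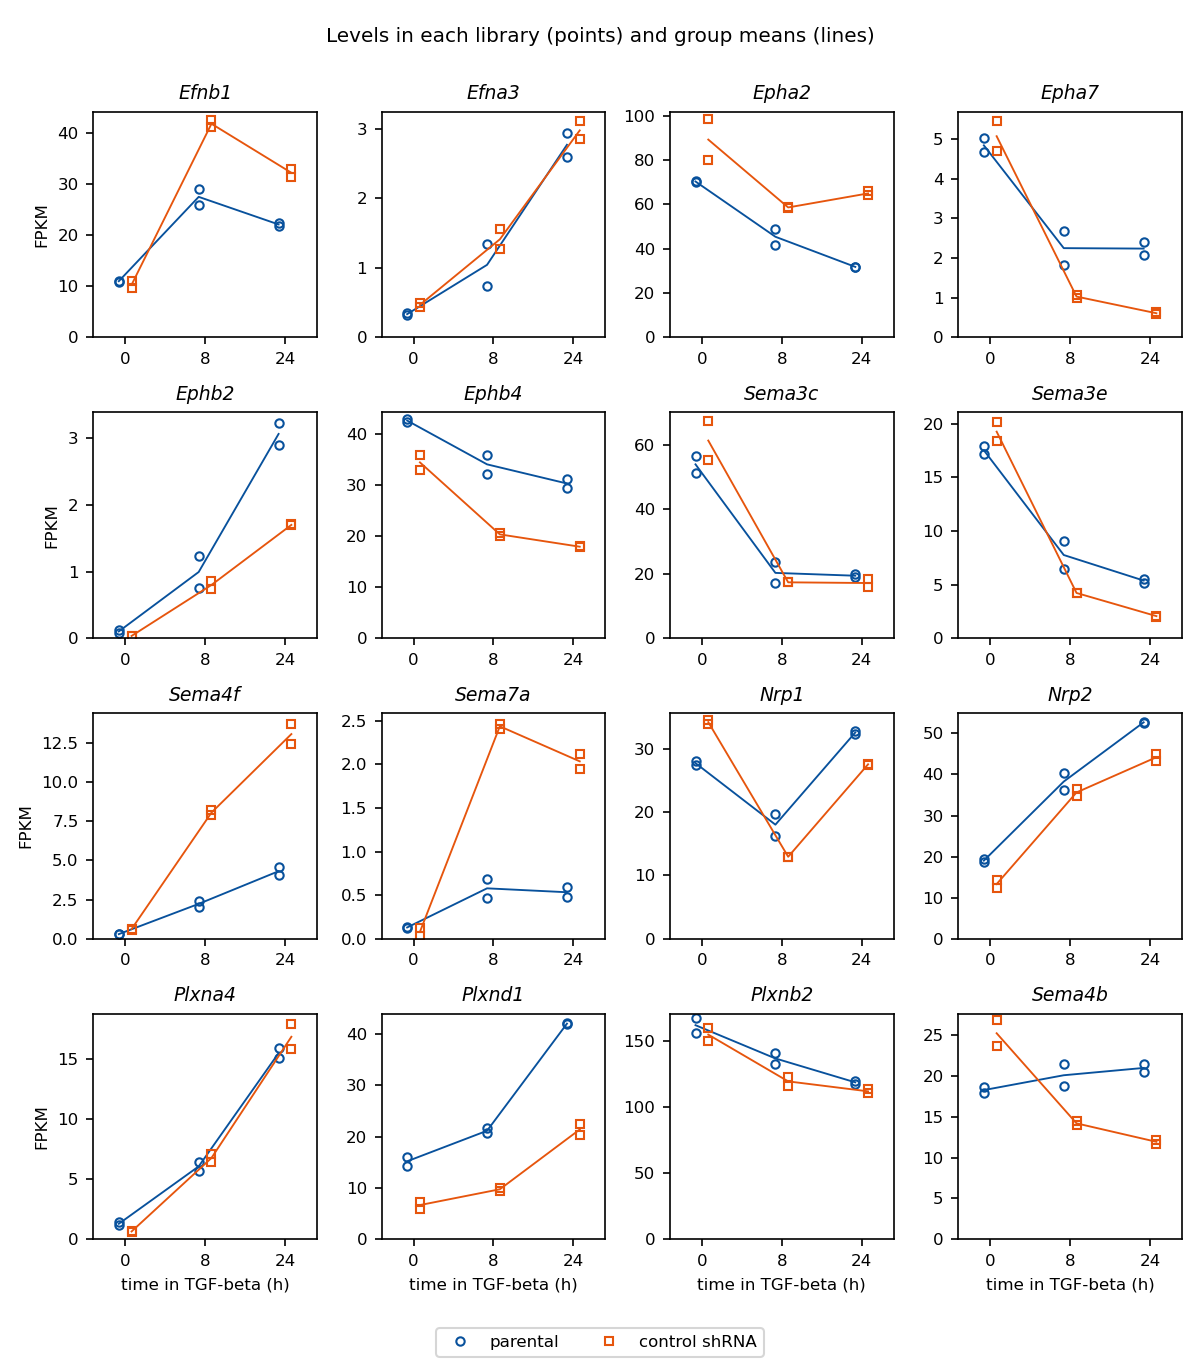
FPKM (y axis, from 0, its own range in each panel) of 16 members in each parental (circles) and control shRNA library (squares) at 0, 8 and 24 h of TGF-β (x axis, evenly spaced), with lines through the means of 2 libraries. Plxna4 and Nrp2 climb alike in both cell types, Nrp1 dips at 8 h, and Sema4b falls in control cells while staying near its start in parental cells.

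The 4 tested class 3 semaphorins, which are secreted, mostly fell. Sema3b, Sema3c and Sema3e were called lower at both times in both cell types, Sema3f was called higher at 24 h, and Sema3a, Sema3d and Sema3g were low or silent. Sema3b reached 1 FPKM in the shRNA libraries only without TGF-β, so entry into the test had there already fixed its fall. Of all genes, 32.1% and 37.1% were called lower at 8 and 24 h in parental cells, and 44.9% and 45.1% in control cells. Sema3c, the most abundant semaphorin of untreated cells, read 51.2 and 56.5 FPKM untreated, 16.95 and 23.5 at 8 h and 18.8 and 19.9 at 24 h in parental cells. Control cells gave 55.1 and 67.4 FPKM untreated, 17.3 and 17.3 at 8 h and 18.2 and 15.9 at 24 h. It fell by 1.39 (SE 0.13, adjusted p = 2.13e-04) and 1.76 (SE 0.21, adjusted p = 8.95e-05) by 8 h, and by 1.43 (SE 0.13, adjusted p = 6.92e-05) and 1.78 (SE 0.21, adjusted p = 5.58e-05) by 24 h. No treated library came near an untreated one, and in parental cells the level did not move further between 8 and 24 h beyond its error. Sema3e, which binds Plxnd1 without a neuropilin, read 17.1 and 17.9 FPKM untreated, 6.49 and 9.02 at 8 h and 5.19 and 5.55 at 24 h in parental cells. Control cells gave 18.4 and 20.1 FPKM untreated, 4.23 and 4.19 at 8 h and 2.01 and 2.09 at 24 h. It went on falling between 8 and 24 h, to a change of -1.54 (SE 0.12, adjusted p = 3.59e-05) and -2.73 (SE 0.07, adjusted p = 5.44e-09). Sema3f, a ligand of Nrp2, read 14.9 and 14.8 FPKM untreated, 14.2 and 14.6 at 8 h and 26.4 and 24.99 at 24 h in parental cells, level with the start at 8 h and above it at 24 h by 0.75 (SE 0.05, adjusted p = 1.00e-05). In control cells it was first lower, -0.47 (SE 0.11, adjusted p = 0.00518), and then higher, 0.41 (SE 0.11, adjusted p = 0.00962).

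Class 4 semaphorins, which are transmembrane ligands mainly of B-type plexins, went both ways. Sema4f showed the steepest rise of the class, at 0.283 and 0.313 FPKM untreated, 2.43 and 2.03 at 8 h and 4.56 and 4.07 at 24 h in parental cells. Control cells gave 0.585 and 0.657 FPKM untreated, 8.195 and 7.91 at 8 h and 13.7 and 12.4 at 24 h. At 24 h the change was 2.03 (SE 0.09, adjusted p = 2.21e-06) and 3.12 (SE 0.07, adjusted p = 2.95e-09), and the control level, in its own table, was above the parental one. Sema4a, in contrast, read 9.097 and 8.63 FPKM untreated, 3.81 and 5.38 at 8 h and 2.54 and 2.96 at 24 h in parental cells. Control cells gave 3.73 and 3.06 FPKM untreated, 1.16 and 1.096 at 8 h and 0.8701 and 0.697 at 24 h. It fell by 1.40 (SE 0.13, adjusted p = 7.07e-05) and 1.30 (SE 0.12, adjusted p = 1.57e-05) at 24 h. Sema4c, a ligand of Plxnb2, and Sema4d, the ligand of Plxnb1, were both called higher at 24 h, by 0.85 (SE 0.05, adjusted p = 1.06e-05) and 0.62 (SE 0.07, adjusted p = 1.35e-04) in parental cells. Sema4g read 2.96 and 2.48 FPKM untreated, 1.23 and 1.72 at 8 h and 1.55 and 1.96 at 24 h in parental cells with a change of -0.44 (SE 0.12, adjusted p = 0.0163) at 24 h, a call lost without the filter and without the first untreated or the first 24 h library.

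Sema4b, like Nrp1 at 24 h, was called in opposite directions in the 2 cell types. It read 18.6 and 17.9 FPKM untreated, 18.7 and 21.4 at 8 h and 20.4 and 21.5 at 24 h in parental cells, where 8 h gave no call (0.13 (SE 0.07, adjusted p = 0.154)) and 24 h a small one (0.19 (SE 0.07, adjusted p = 0.0392)), which was lost without the filter and without any 1 of the untreated or 24 h libraries. In control cells it read 23.6 and 26.8 FPKM untreated, 14.4 and 13.9 at 8 h and 11.6 and 12.2 at 24 h and fell by 0.78 (SE 0.11, adjusted p = 2.12e-04) at 8 h and by 1.02 (SE 0.11, adjusted p = 2.79e-05) at 24 h. Whether the difference between the 2 tables exceeds error was not tested, since they were normalised apart. Sema6b, a transmembrane ligand of A-type plexins, read 2.94 and 3.01 FPKM untreated, 2.09 and 2.61 at 8 h and 0.446 and 0.5303 at 24 h in parental cells and 1.23 and 1.35 FPKM untreated, 0.753 and 0.973 at 8 h and 0.112 and 0.0779 at 24 h in control cells, with a late change of -1.42 (SE 0.09, adjusted p = 1.13e-05) and -1.06 (SE 0.07, adjusted p = 1.64e-06). Sema6d rose late, from 0.671 and 0.5596 FPKM untreated, 1.04 and 0.9401 at 8 h and 2.46 and 2.28 at 24 h in control cells, by 1.06 (SE 0.06, adjusted p = 8.81e-07), and by 0.48 (SE 0.07, adjusted p = 8.48e-04) in parental cells. Sema7a, the GPI-anchored semaphorin, read 0.125 and 0.135 FPKM untreated, 0.685 and 0.472 at 8 h and 0.588 and 0.479 at 24 h in parental cells and was not tested there. In control cells it went from near 0 upwards, at 0.0318 and 0.128 FPKM untreated, 2.41 and 2.46 at 8 h and 1.95 and 2.12 at 24 h, with a change of 1.67 (SE 0.09, adjusted p = 7.38e-07) at 8 h.

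Of the receptors for semaphorins, Plxna4, Plxnd1 and Nrp2 rose and the abundant Plxnb2 fell. Plxna4, a receptor of class 3 and class 6 semaphorins, showed the largest change of all members on the log2(FPKM + 1) scale. That scale understates changes from below 1 FPKM, such as those of Ephb2 and Sema4f. Plxna4 read 1.18 and 1.43 FPKM untreated, 6.42 and 5.72 at 8 h and 15.9 and 15.1 at 24 h in parental cells. Control cells gave 0.636 and 0.694 FPKM untreated, 7.09 and 6.45 at 8 h and 15.8 and 17.9 at 24 h. The change was 1.62 (SE 0.08, adjusted p = 3.32e-05) at 8 h and 2.84 (SE 0.08, adjusted p = 6.18e-07) at 24 h in parental cells, and 2.22 (SE 0.10, adjusted p = 3.43e-07) and 3.42 (SE 0.10, adjusted p = 1.54e-08) in control cells. In every time step of both cell types the libraries were fully separated. In the shRNA libraries Plxna4 reached 1 FPKM only with TGF-β, so entry into the test had there already fixed its rise. Plxnd1, the receptor of Sema3e, read 14.4 and 16.1 FPKM untreated, 21.7 and 20.7 at 8 h and 42.1 and 41.9 at 24 h in parental cells. Control cells gave 7.38 and 6.02 FPKM untreated, 10.1 and 9.48 at 8 h and 20.3 and 22.5 at 24 h. Most of its rise came after 8 h, with 0.45 (SE 0.06, adjusted p = 7.15e-04) at 8 h and 1.41 (SE 0.06, adjusted p = 1.96e-06) at 24 h in parental cells, and with 1.55 (SE 0.10, adjusted p = 1.39e-06) at 24 h in control cells. Its ligand Sema3e thus fell while it rose.

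The neuropilins, which also bind VEGF, took different courses. Nrp2 read 18.7 and 19.3 FPKM untreated, 40.2 and 36.3 at 8 h and 52.9 and 52.5 at 24 h in parental cells. Control cells gave 12.3 and 14.4 FPKM untreated, 36.4 and 34.9 at 8 h and 43.3 and 45.03 at 24 h. It rose at both times, to 1.42 (SE 0.05, adjusted p = 1.53e-06) and 1.66 (SE 0.07, adjusted p = 8.96e-08) at 24 h. Nrp1 read 27.4 and 28.1 FPKM untreated, 16.3 and 19.7 at 8 h and 32.4 and 32.7 at 24 h in parental cells. Control cells gave 33.9 and 34.5 FPKM untreated, 12.9 and 12.97 at 8 h and 27.6 and 27.5 at 24 h. It fell by 0.60 (SE 0.08, adjusted p = 9.05e-04) and 1.34 (SE 0.05, adjusted p = 6.51e-08) at 8 h and had returned by 24 h, to slightly above the start in parental cells (0.22 (SE 0.08, adjusted p = 0.04)) and slightly below it in control cells (-0.30 (SE 0.05, adjusted p = 3.36e-04)). The parental call was lost without the filter and without any 1 of the untreated or 24 h libraries. Nrp1 was the more abundant neuropilin in untreated cells, and Nrp2 in treated cells of both kinds.

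Plxnb2 read 156 and 168 FPKM untreated, 133 and 141 at 8 h and 118 and 119.9 at 24 h in parental cells. Control cells gave 159.7 and 150.2 FPKM untreated, 123 and 116 at 8 h and 111 and 114 at 24 h. Its change at 24 h was -0.44 (SE 0.05, adjusted p = 1.70e-04) and -0.46 (SE 0.05, adjusted p = 3.92e-05), so that it remained the most abundant member throughout. Plxna1, a partner of neuropilins, read 25.1 and 29.1 FPKM untreated, 28.9 and 29.6 at 8 h and 31.1 and 30.6 at 24 h in parental cells, with a change of 0.18 (SE 0.07, adjusted p = 0.0419) at 24 h, a call lost without the filter, without the first untreated library and without either 24 h library. In control cells it read 25.5 and 25.9 FPKM untreated, 39.2 and 37.2 at 8 h and 41.9 and 42.9 at 24 h and rose by 0.70 (SE 0.06, adjusted p = 6.38e-06) at 24 h. Plxna2 was lower at 8 h (-0.34 (SE 0.10, adjusted p = 0.0264) in parental and -0.62 (SE 0.07, adjusted p = 8.63e-05) in control cells), as Nrp1 was. The parental call was lost without the filter, without the second untreated library and without the first 8 h library. With quantile scaling in limma, control cells were still lower at 24 h (-0.32, adjusted p = 0.0022), and parental cells gave no call (0.16, adjusted p = 0.165). Plxnb1, the receptor of Sema4d, was higher in parental cells by 0.80 (SE 0.06, adjusted p = 2.12e-05) at 24 h, while in control cells the difference was 0.08 (SE 0.12, adjusted p = 0.602), below the threshold.

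Lamin B1 knockdown moved the members less than TGF-β did. Against control cells, 12 of 37 members (32.4%) were called in untreated KD cells, beside 19.7% of all tested genes. Of these 7 were higher (10.6% of all genes) and 5 lower (9.09% of all genes). After 8 h 9 (24.3%) were called, beside 35.8% of all genes. There 6 were higher (19.3% of all genes) and 3 lower (16.5% of all genes). After 24 h 17 (45.9%) were called, beside 28.3%, with 13 higher (16.8% of all genes) and 4 lower (11.5% of all genes). Only Sema4g passed 2-fold, and only in untreated cells, where 0.585% of all genes did. The share of all genes past 2-fold was 0.803% at 8 h and 0.533% at 24 h. These counts were unstable: without 1 library at a time they ran from 3 to 18 untreated, from 3 to 13 at 8 h and from 4 to 19 at 24 h, the lowest being without the untreated KD replicate 2, without KD replicate 1 or control replicate 2 of 8 h, and without control replicate 1 of 24 h. Of 12 such omissions 7, 4 and 3 moved the count by more than 1.5 times. The KD libraries at 24 h also differed from each other in Lmnb1 (4.37 and 7.52 FPKM) and in the epithelial keratin Krt19 (22.1 and 52.6 FPKM), and the part of this in the 24 h results was not tested. Epha4, Plxna2 and Sema4g were called higher at all 3 times, by 0.58 (SE 0.07, adjusted p = 0.00102) for Plxna2 at 24 h. Calls at 8 or 24 h were lost for each of them when some single libraries were left out. The untreated call of Plxna2 was also lost in some such omissions, without the filter and when only the groups compared were fitted. Those of Epha4 and Sema4g were kept.

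KD cells responded to TGF-β as well, with 34 of 37 members called at 8 h, beside 67.8% of all genes, and 34 at 24 h, beside 71.9%. At 8 h 17 rose (23% of all genes) and 17 fell (44.8% of all genes), with 16 at least 2-fold (10.7% of all genes). At 24 h 19 rose (28.6% of all genes) and 15 fell (43.3% of all genes), with 17 at least 2-fold (15.4% of all genes). Among the 28 members that did not enter the test through 1 side alone, 11 rose and 15 fell by 8 h, while 13 rose and 12 fell by 24 h. The 2-fold counts also hold Efna3, Ephb1, Plxna4 and Sema7a at both times and Ephb2 at 24 h, which entered with TGF-β only. These comparisons share no library with those of the control cells, and the difference between the 2 responses was tested directly. It was called for 3 members (8.11%) at 8 h, where 4.06% of all genes were called, and for 5 (13.5%) at 24 h, where 4.72% were. Without 1 library at a time these counts ran from 0 to 7 and from 1 to 17, and 11 and 10 of 12 such omissions moved them by more than 1.5 times. The 24 h count was 17 without KD replicate 1 of 24 h, and none of the 3 calls at 8 h was kept without either untreated KD library, either control library of 8 h or KD replicate 1 of 8 h. At 8 h the value was positive for Efna2 (2.45% of all genes were called in that direction) and negative for Efnb2 and Sema4g (1.61%). At 24 h it was positive for Efna2, Epha7 and Sema3e (2.73% of all genes) and negative for Sema4f and Sema4g (1.98%). Only Sema4g passed 2-fold, at both times, beside 0.262% and 0.463% of all genes.

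Sema4g stood apart at the start. It read 2.38 and 1.23 FPKM untreated, 0.606 and 0.578 at 8 h and 0.921 and 0.882 at 24 h in control cells and 8.53 and 8.02 FPKM untreated, 1.51 and 1.54 at 8 h and 1.697 and 1.84 at 24 h in KD cells. Untreated KD cells were higher by 1.76 (SE 0.15, adjusted p = 2.30e-04), and the difference was smaller at 8 h (0.66 (SE 0.15, adjusted p = 0.0105)) and 24 h (0.54 (SE 0.15, adjusted p = 0.0306)). The untreated control libraries differed between themselves, but each KD library was above both, and the difference in response was -1.09 (SE 0.22, adjusted p = 0.0354) at 8 h and -1.21 (SE 0.22, adjusted p = 0.0234) at 24 h. The untreated parental libraries, at 2.96 and 2.48 FPKM in their own table, lay nearer to the control than to the KD values.

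Sema4f was called higher in untreated KD cells and lower at 24 h. It read 0.964 and 1.004 FPKM untreated, 8.404 and 7.57 at 8 h and 9.06 and 9.63 at 24 h in KD cells, against the control values above, and the difference in response at 24 h was -0.73 (SE 0.10, adjusted p = 0.00637). Both calls against control cells were lost when only the groups compared were fitted. The untreated one, at low levels, was also lost with quantile scaling and when some single libraries were left out. Efna2 began lower in KD cells, at 0.928 and 1.01 FPKM untreated, 5.14 and 4.74 at 8 h and 4.13 and 4.24 at 24 h, against 1.37 and 1.64 FPKM untreated, 3.45 and 3.52 at 8 h and 3.24 and 3.598 at 24 h in control cells. Its higher level in KD cells at 24 h was a call lost with 0.1 FPKM added, without the filter and with quantile scaling. The responses differed by 0.75 (SE 0.10, adjusted p = 0.0116) at 8 h and 0.58 (SE 0.10, adjusted p = 0.0206) at 24 h. Sema3e read 17.7 and 17.6 FPKM untreated, 4.78 and 4.65 at 8 h and 3.21 and 2.73 at 24 h in KD cells, a fall smaller by 0.49 (SE 0.09, adjusted p = 0.0287) at 24 h, and Epha7 read 4.03 and 3.803 FPKM untreated, 1.36 and 1.29 at 8 h and 0.754 and 1.08 at 24 h, a fall smaller by 0.55 (SE 0.13, adjusted p = 0.0474). The call for Epha7 was lost with a replicate block and held in 3 of 17 alternatives, and that for Sema3e held in 8. Efnb2 read 40.9 and 40.4 FPKM untreated, 23.02 and 23.02 at 8 h and 32.4 and 33.5 at 24 h in KD cells, where it began higher and met the control level at 8 h, a difference in response of -0.28 (SE 0.06, adjusted p = 0.0387). The other receptors and ligands with large responses had no call for a difference, among them Plxna4 at 24 h, with 0.17 (SE 0.15, adjusted p = 0.523), and Nrp2, with 0.38 (SE 0.10, adjusted p = 0.0633).

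**Figure D3:**
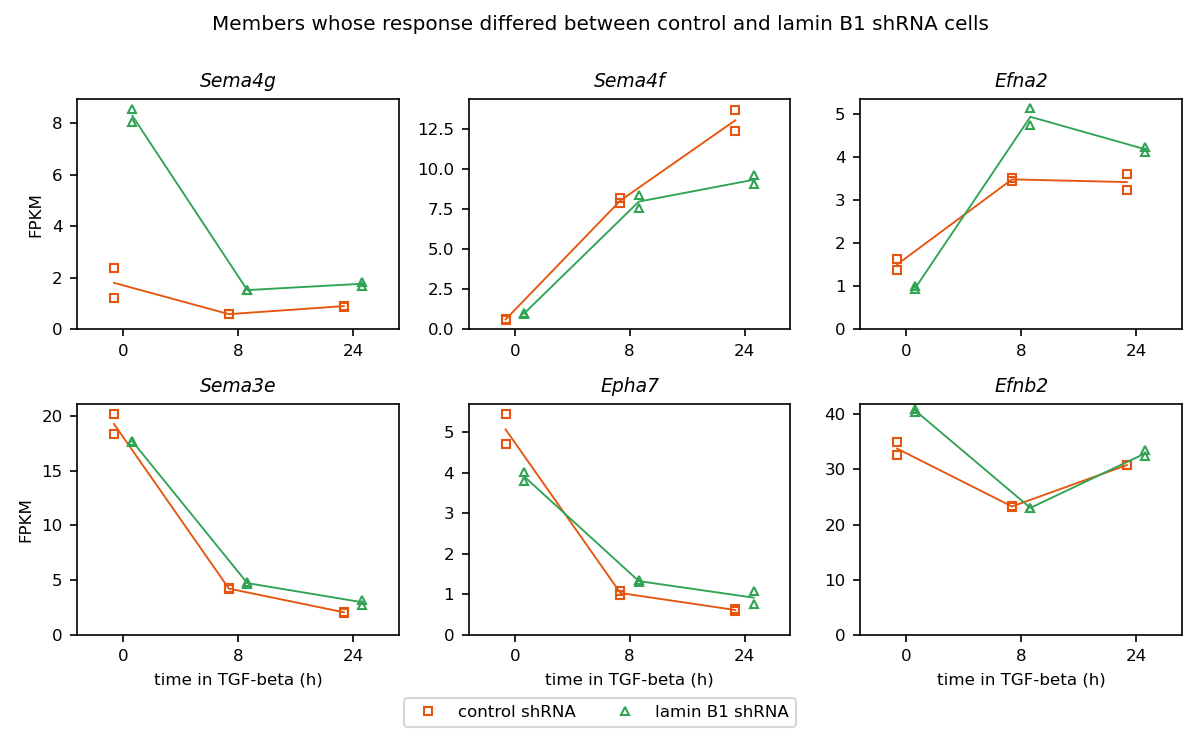
FPKM (y axis, from 0) of the 6 members whose response was called different, in each control shRNA (squares) and KD library (triangles) at 0, 8 and 24 h of TGF-β (x axis, evenly spaced), with lines through the means of 2 libraries. Sema4g differs mainly before TGF-β, and Sema4f mainly at 24 h, where the KD libraries read 9.06 and 9.63 FPKM and the control libraries 13.7 and 12.4 FPKM.

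Genes that act with these families were counted from 2 lists chosen from general knowledge. Of 32 tested partners of Eph and ephrin signalling, 20 were called higher and 10 lower at 24 h in parental cells (93.8%, beside 70.5% of all genes). Of 31 in control cells 15 were higher and 9 lower (77.4%, beside 70.7% of all genes). Fyn, a Src-family kinase, Chn1 (α-chimaerin, a Rac GTPase-activating protein downstream of Epha4) and Kalrn, a guanine exchange factor, had the largest rises in parental cells, of 1.10 (SE 0.08, adjusted p = 2.11e-05), 0.87 (SE 0.06, adjusted p = 2.11e-05) and 0.86 (SE 0.07, adjusted p = 3.35e-05). Ngef (ephexin, an exchange factor bound to EphA receptors), Arhgef16 and Tiam1 had the largest falls and fell by 1.53 (SE 0.10, adjusted p = 1.19e-05), 1.36 (SE 0.08, adjusted p = 6.31e-06) and 0.29 (SE 0.07, adjusted p = 0.00747). Of 38 tested partners of semaphorins and plexins, 23 were called higher and 9 lower in parental cells (84.2%). Of 40 in control cells 18 were higher and 11 lower (72.5%, a share near that of all genes). Vegfc and Vegfa, both neuropilin ligands, and Itgb1, the integrin chain bound by Sema7a, rose most, by 1.93 (SE 0.04, adjusted p = 3.07e-07), 1.68 (SE 0.13, adjusted p = 2.87e-05) and 1.25 (SE 0.04, adjusted p = 9.26e-07). The largest falls were those of Flt1, Met and Rnd3, which fell by 1.29 (SE 0.10, adjusted p = 2.44e-05), 0.82 (SE 0.07, adjusted p = 4.11e-05) and 0.75 (SE 0.10, adjusted p = 5.09e-04).

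Lamin B1 peaks lay at a larger share of these genes than of genes at large. A gene was taken as lamin B1 + if any part of a peak fell between 2500 bp upstream of its TSS and its 3′ end on mm9. Untreated, 20 of the 53 members (37.7%) carried such a peak, beside 19.8% of all 21362 placed genes. With TGF-β the count was 35 (66.0%) after 8 h, beside 38.6%, and 27 (50.9%) after 24 h, beside 29.3%. The Wilson 95% intervals, which cover counting error over genes only, ran from 25.9 to 51.2%, from 52.6 to 77.3% and from 37.9 to 63.9%. Among genes tested for expression the shares were 50%, 80.6% and 63.9% of 36 members and 33.7%, 56.5% and 44.2% of all. The peak lists held 4645, 10484 and 7083 peaks, and with each cut to the length of the shortest the members counted 20, 21 and 22. These were 37.7%, 39.6% and 41.5% of members, beside 19.8%, 21.0% and 21.1% of all genes. Most peaks lay at the start of the gene, 16 of 30 untreated, 36 of 62 at 8 h and 25 of 34 at 24 h.

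Of the members, 15 (28.3%, beside 13.1% of all genes) were lamin B1 + at all 3 times, among them Plxna4, Plxnd1, Nrp2, Plxnb2, Sema3c, Epha2 and Efnb2. At Plxna4 the peak at the start (chr6:32536887-32538560 at 24 h, mm9) had scores from the peak caller MACS, whose scale the files do not state, of 76.5, 95.5 and 138.6 in untreated, 8 h and 24 h cells, in the order of its RNA. Sema3c, whose RNA fell, had scores of 61.7, 111.3 and 109.2. At Plxnd1 the highest scores were 81.8, 73.9 and 294.4, and at Efnb2 they were 111.4, 340.0 and 252.7, the highest of any member at 8 h. Ephb2 and Nrp1 had a peak at 24 h only, at the start of the gene, with scores of 120.2 and 76.8. Peaks at both treated times but not before were found at 9 members (17%, beside 11.1% of all genes), among them Epha7, Ephb1, Ephb6, Sema4b and Sema6b. Sema4f, which rose steeply, Efna1, Epha4 and Sema4a had none at any time, and Sema7a had one in untreated cells only. Scores come from lists called separately, without replicates, so no difference between them was tested.

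Accessible promoters, taken as an ATAC-seq peak within 500 bp of the TSS, were found for 12 members (22.6%) before TGF-β, beside 30.4% of all genes. They numbered 10 (18.9%) after 8 h, beside 24.8%, and 31 (58.5%) after 24 h, beside 46.8%. Among genes tested for expression the members' shares were 30.6%, 27.8% and 77.8%, below the 56.4%, 46.1% and 84% of all such genes. The 24 h list held 33811 peaks, against 9782 and 10340, and cut to the length of the shortest it left 11 members. That was 20.75% of members, below the 28.1% of all genes. Efnb2, Epha7, Nrp1, Plxna2, Plxnb1 and Sema4b were open by this measure at all 3 times (11.3%, beside 21.5% of all genes). A peak was gained at 8 h and kept at 4 members (7.55%, beside 3.3% of all genes). At 15 it was gained at 24 h (28.3%, beside 13.2%). Of the former, Efna4, Ephb6 and Plxnd1 had higher RNA at 8 h in parental cells and Plxnb2 lower. Of the latter, Efna1, Efna3, Ephb1, Nrp2, Plxna1, Plxna4, Sema4c and Sema4d had higher RNA at 24 h. RNA was lower for Efna5, Epha2, Ephb4 and Sema3e, not called for Plxna3, and not tested for Epha5 and Sema6a. Ephb2 and Sema4f rose with no ATAC-seq peak at their start at any time.

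**Figure D4:**
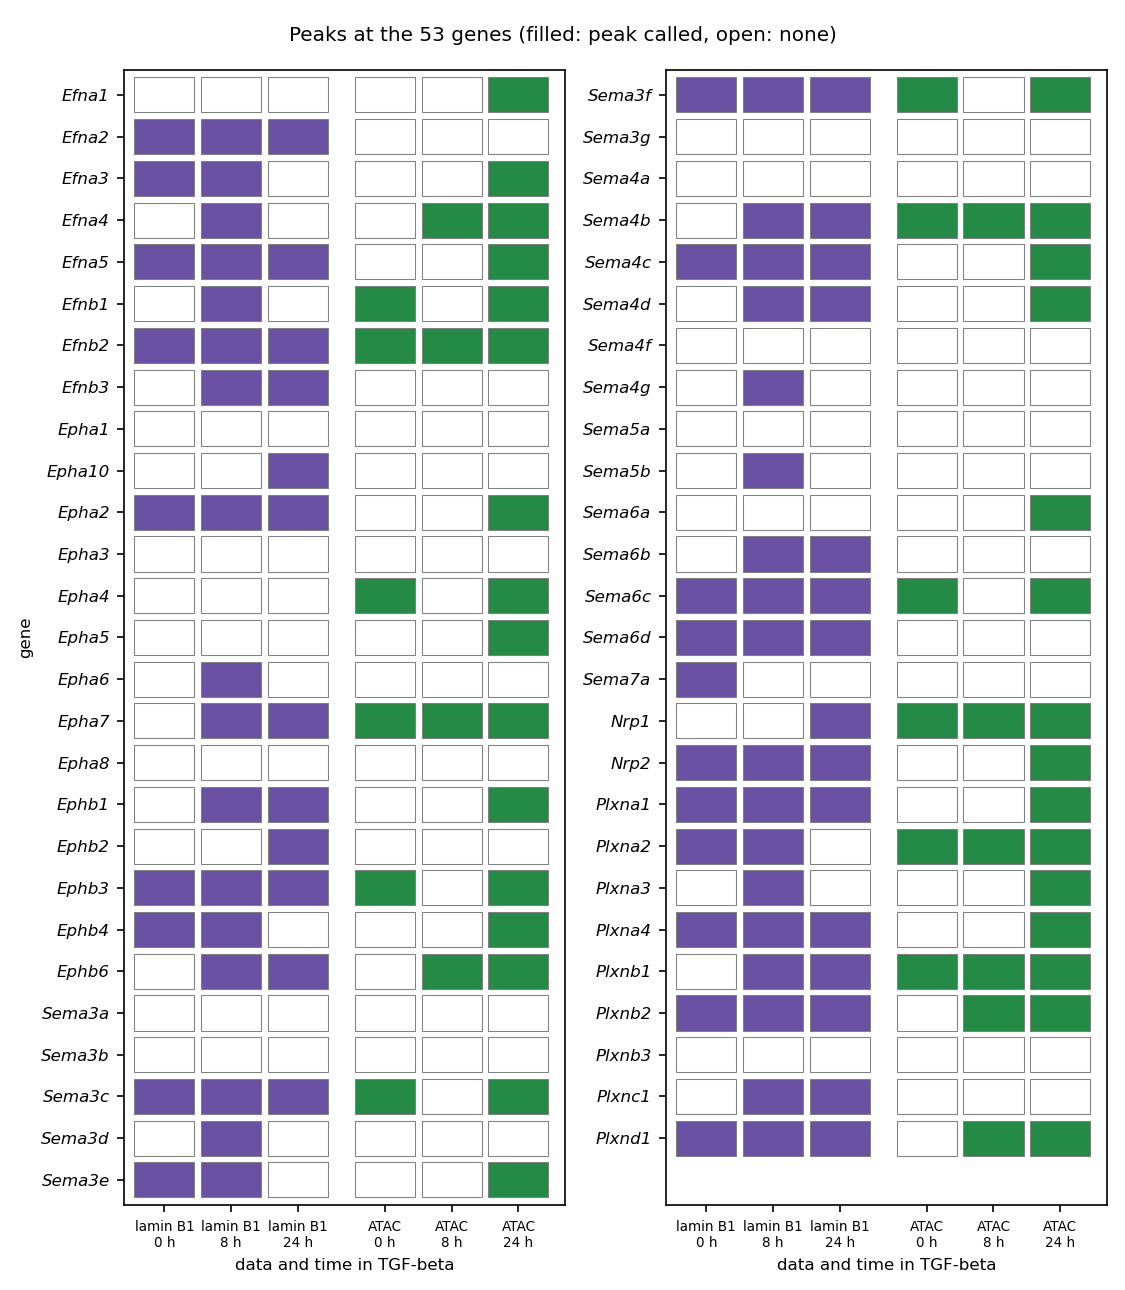
Presence of a lamin B1 ChIP-seq peak (purple, gene body and 2500 bp upstream) and of an ATAC-seq peak (green, within 500 bp of the TSS) at each of the 53 genes (rows) at 0, 8 and 24 h of TGF-β (columns), 1 library each. Open boxes are genes without a peak in that list, and most green boxes stand in the 24 h column, whose list is the longest.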

How the data were processed

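RNA levels were the FPKM values the authors deposited, 1 column per library in 2 tables with no header line, whose column order was taken from the file name that each sample's label gives. The submitters' processing notes name Bowtie, TopHat and Cufflinks and the build mm9, without versions, and the annotation is not given in the sources used here. Peaks carried the score the authors' MACS run deposited, with 1 list per library. FPKM keep no counts, so depth was read only relative to the first library of each table, from the step between low values: 92.7 to 116% in the parental and 79.0 to 113% in the shRNA table.

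Genes reaching 1 FPKM in 2 or more libraries of a table (11309 parental, 11450 shRNA) were fitted in R 4.3.3 with limma 3.58.1 (eBayes with trend) on log2(FPKM + 1), 1 fit per table without a replicate block, with Benjamini-Hochberg adjustment over all tested genes. Replicates are 2 biological replicates per the study's methods. The fit was tested on simulated data. Genes were placed by symbol on GENCODE M1 (mm9), overlapping models of 1 symbol being merged, and 21362 were placed. The members and lists were chosen with earlier results of these data known. Values per library are given for members called at least 2-fold in any comparison, for the 3 most abundant of each role in untreated parental cells and for those called in the difference in response, and of each partner list the 3 largest called rises and falls at 24 h in parental cells are named. Other settings tried were 0.1 FPKM added, no filter, quantile scaling, a 2-fold minimum, only the groups compared, a replicate block, each library left out, and for peaks stricter scores, lists of equal length and other windows, the use of any annotated TSS being chosen after seeing the data. Hi-C samples were not analysed here.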

Additional observations from a re-analysis of the deposited data

Results flagged for a closer look

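The response to TGF-β differed between control and KD cells, by the test of the difference itself (limma, Benjamini-Hochberg over 11450 genes, 2 libraries per group), for the following members. At 8 h the log2 response of KD cells minus that of control cells was 0.752 for Efna2 (adjusted p = 0.0116), -0.276 for Efnb2 (adjusted p = 0.0388) and -1.09 for Sema4g (adjusted p = 0.0354). At 24 h it was 0.578 for Efna2 (adjusted p = 0.0206), 0.549 for Epha7 (adjusted p = 0.0474), 0.493 for Sema3e (adjusted p = 0.0287), -0.733 for Sema4f (adjusted p = 0.00637) and -1.21 for Sema4g (adjusted p = 0.0234). Over 17 alternatives each, the difference of Sema4f passed the threshold in all 17 (adjusted p from 0.0038 to 0.0412). That of Efna2 passed in 12 at each time (highest adjusted p 0.0646 at 8 h and 0.0988 at 24 h). Sema4g passed in 7 at 8 h and 9 at 24 h, Sema3e in 8, Efnb2 in 7 and Epha7 in 3, with adjusted p reaching 0.140, 0.110, 0.129, 0.146 and 0.178. Each kept its sign in all 17.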

How the results depend on the processing

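No named member reversed sign in a 2-fold response to time under any alternative, and all 1271 such values kept their call. Of 136 values for differences in response, 61 lost theirs. With a 2-fold minimum the counts of called members fell to 5, 12 and 3 in parental cells (8 h, 24 h, 24 h against 8 h), 14 and 16 in control cells, 16 and 17 in KD cells, 1, 0 and 0 for KD against control (untreated, 8 h, 24 h) and 1 at each time for the difference in response. In the comparisons counted as 0 by limma no member reached 2-fold whatever its p, and 14 (8 h) and 19 (24 h) had an unadjusted p under 0.05 at any size. Fitting only the groups compared gave 2, 18 and 3 for KD against control and 6 and 1 for the difference. Without a filter the untreated KD count was 7, and with 0.1 FPKM added the 24 h difference count was 3. Leaving out 1 library gave 29 to 32, 29 to 34 and 16 to 26 calls in parental cells, 33 to 34 and 31 to 36 in control cells, 31 to 34 and 32 to 34 in KD cells, 3 to 18, 3 to 13 and 4 to 19 for KD against control, and 0 to 7 and 1 to 17 for the difference, where 11 and 10 of 12 omissions moved the count by more than 1.5 times, the highest came without KD replicate 1 of 24 h and 14 members at 8 h had an unadjusted p under 0.05 with all libraries. The cause was not tested. Deviations of samples sharing a replicate number correlated at -0.135 to 0.368 over 15 pairs of groups, 2 of them above 0.1. Whether some groups were paired by number was not tested further, and the main fit held no pairing. A replicate block gave 34, 36, 34 and 33 calls for the shRNA time courses, 9, 10 and 17 for KD against control and 2 and 4 for the difference. Peaks at or above the median score left 13, 22 and 19 lamin B1 + members and 6, 6 and 18 with an ATAC-seq promoter peak, and lists of equal length left 21 lamin B1 + at 8 h and 11 with ATAC-seq at 24 h. Depth limits low members, and peak lists have no replicate.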
